A study of Mus musculus with 40 samples.

Results

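Glutathione transferases were described here by 10 genes of the family in mouse adipose tissue, out of 55270 genes in the table. They were Gsta3 and Gsta4 of the alpha class, Gstm1, Gstm2, Gstm5 and Gstm7 of the mu class, Gstt1 of the theta class, Gstp1 of the pi class, Gstz1 of the zeta class, and Mgst1, a microsomal enzyme. The genes were listed with their TPM values (a transcript's share of the library, from reads per base of gene length scaled to one total) in these same libraries in view, so their levels and differences are a description and carry no test. RNA of C57BL/6J mice was sequenced in 40 libraries, 5 in each of 8 groups. Each group had 1 of 2 depot labels, subcutaneous or visceral fat, and 1 of 4 treatments. These were normal, normal with drug, high-fat diet (HFD), and the latter with drug. The drug is beta-carotene, the carotenoid from which vitamin A is made, and visceral fat is said to be epididymal, both per the series description. Dose, duration, age and sex are not stated, and no genetic change is named for any group. A library is called by its group and its title number.

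Glutathione transferases join the tripeptide glutathione to reactive, electron-poor molecules, which are then exported from the cell and broken down. The soluble enzymes work as pairs of subunits and are divided into classes by sequence, while Mgst1 sits in membranes. In fat, one known substrate is 4-hydroxynonenal, an aldehyde formed when unsaturated lipids are oxidised, and the alpha class enzyme Gsta4 is known for its high activity towards it. Several genes of the family are classical targets of the transcription factor NRF2, which binds the antioxidant response element.

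RefSeq promoters of build GRCm38.p6, from 250 bases before to 50 bases after the transcription start, were matched by symbol for 9 of the 10 genes, giving 13 promoters. Each was searched on both strands for TGACNNNGC, the core of the antioxidant response element. The core was found in 4 of the 13 promoters, belonging to Gsta3, Gstm5, Gstm7 and Mgst1, and in 12.4% of the 32851 promoters of the whole table. The 3 promoters printed here belong to the genes of the list with some of the widest ranges over the libraries labelled subcutaneous, and capitals mark the match. The matches began 121, 42 and 129 bases before the start.
Gsta3 (chr1:21240335-21240634, plus strand): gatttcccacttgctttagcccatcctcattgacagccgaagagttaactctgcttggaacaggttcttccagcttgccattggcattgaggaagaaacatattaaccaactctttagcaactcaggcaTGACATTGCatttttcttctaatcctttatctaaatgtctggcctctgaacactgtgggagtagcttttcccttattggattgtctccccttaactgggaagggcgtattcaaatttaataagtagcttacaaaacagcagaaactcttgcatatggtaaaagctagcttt
Gstm5 (chr3:107895604-107895903, plus strand): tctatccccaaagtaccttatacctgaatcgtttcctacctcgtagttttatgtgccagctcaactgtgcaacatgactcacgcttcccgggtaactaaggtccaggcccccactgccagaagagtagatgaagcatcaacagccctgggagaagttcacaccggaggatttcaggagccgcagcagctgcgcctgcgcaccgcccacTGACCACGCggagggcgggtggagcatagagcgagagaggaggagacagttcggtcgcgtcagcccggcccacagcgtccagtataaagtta
Gstm7 (chr3:107931565-107931864, minus strand): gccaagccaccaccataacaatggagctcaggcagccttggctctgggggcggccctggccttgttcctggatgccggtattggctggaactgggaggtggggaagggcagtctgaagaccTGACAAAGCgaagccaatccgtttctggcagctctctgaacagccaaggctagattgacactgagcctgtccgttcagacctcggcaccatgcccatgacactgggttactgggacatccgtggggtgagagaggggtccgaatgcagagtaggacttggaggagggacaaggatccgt
A match is a string of letters and was not tested as a binding site.

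Libraries held about 4.58 to 8.59 M counted reads (M, 1e6), an approximation from the spacing of low values. TPM values have one total in every library and so are shares of its RNA, and in these bulk samples fewer cells of a type and less RNA per cell cannot be told apart. Most markers of the depots ran against the depot labels. The mesothelial gene Upk3b ranged from 6.94 to 219 TPM in the 20 libraries labelled subcutaneous and reached at most 0.646 TPM in the 20 labelled visceral. Tbx15, a transcription factor of subcutaneous fat, reached at most 0.0929 TPM in the former and was at 1.34 TPM or more in every one of the latter. Of 5 tested genes of a list of 7 inguinal markers, 4 were lower in fat labelled subcutaneous and 1, Hoxc8, was higher. Hoxc8 made up most of the list's summed level, which had a median of 225 TPM in the former and 229.5 TPM in the latter. The titles also bear on this, since those of libraries labelled subcutaneous end in e (15) or ewat (5) and those of all 20 labelled visceral end in i. Labels were kept as given, and the word labelled marks this throughout. RNA of other tissues was also present. The summed level of 18 epididymis markers passed 500 TPM in 5 libraries labelled subcutaneous, normal+drug 5, 9 and 11 and HFD+drug 26 and 27, and in 0 labelled visceral. All 5 had drug. Leaving them out keeps normal+drug libraries 2 and 8 and HFD+drug libraries 25, 52 and 62, and every library without drug. Fits without the 5 thus cannot separate epididymis content from drug. The sum of B cell markers passed 5000 TPM in 9 libraries labelled visceral and 3 labelled subcutaneous. Under HFD labelled visceral it was at most 4387 TPM, while the other groups of that label had medians of 7283 to 9773 TPM. Leaving out the 9 thus removes no HFD library and most libraries of each other group. Fits without them cannot separate B cell content from diet or drug.

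The levels of the 10 genes spanned from 1.45 to 1333 TPM. Gstm1 had the highest level of the 10 in libraries labelled subcutaneous, with a median of 781 TPM, followed by Mgst1 at 515 TPM, Gstp1 at 352 TPM and Gstm2 at 294 TPM. In libraries labelled visceral, Mgst1 stood first at a median of 510 TPM, followed by Gstm1 at 355 TPM, Gstp1 at 270 TPM and Gstz1 at 216 TPM. Neighbours in that order overlapped over the libraries, as did Gstp1 (251 to 672 TPM) and Gstm2 (161 to 1007 TPM) in fat labelled subcutaneous and Gstm1 (202 to 534 TPM) and Gstp1 (212 to 389 TPM) in fat labelled visceral. Gsta4 was low throughout, from 1.45 to 14.4 TPM, which is about 4 to 67 reads in a library, so its values are the least precise. The 10 and the other Gst and Mgst genes of the table together summed to 2148 to 5804 TPM in fat labelled subcutaneous. In fat labelled visceral this family sum was 1385 to 2532 TPM.

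**Figure D1:**
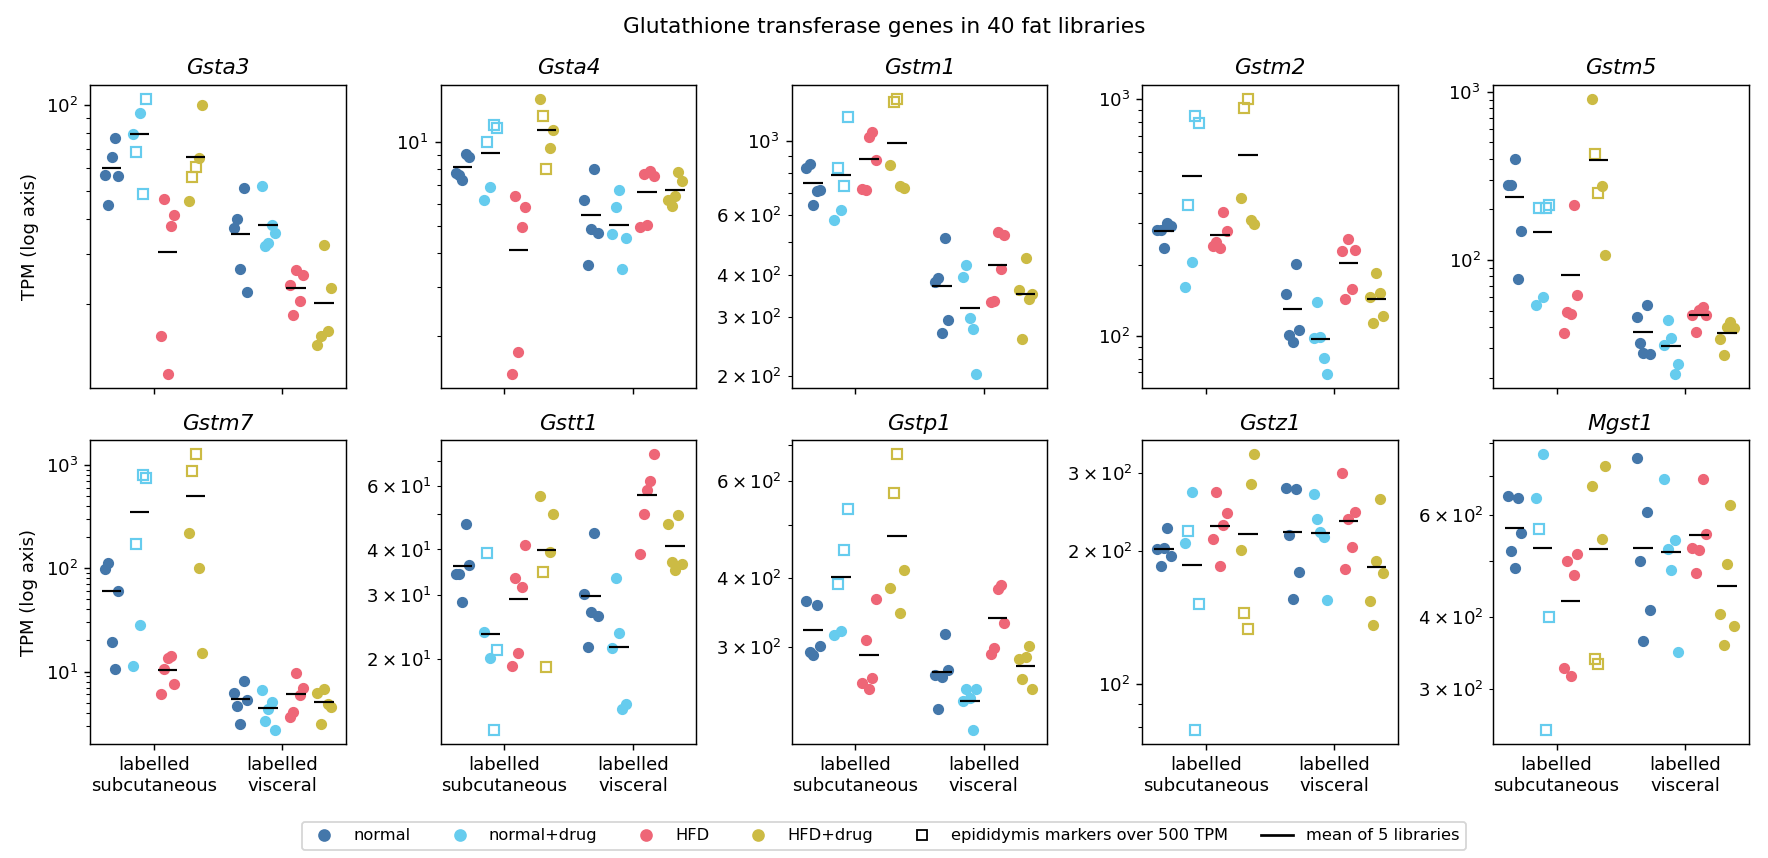
Level of each of the 10 genes in TPM (log axis) in 40 libraries, 5 per group, with the 4 treatments side by side under each depot label and the group mean as a line. Open squares are the 5 libraries whose epididymis markers pass 500 TPM, and Gstm7 spans from 2.72 to 1267 TPM.

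Gsta3 and Gsta4 were lowest under HFD and higher with drug in fat labelled subcutaneous. Gsta3 read 44.8, 56.2, 57.1, 65.9 and 76.6 TPM on the normal diet, 11.3, 15.5, 37.7, 41.3 and 47.0 TPM under HFD, and 46.0, 56.2, 60.8, 65.3 and 100.3 TPM under HFD with drug. HFD libraries 50 and 22 held the lowest values, and the highest HFD library overlapped the lowest of both other groups. Gsta3 differed by -1.13 ± 0.33 (log2(TPM + 1), SE) between HFD and normal diet and by 1.23 ± 0.33 between HFD with drug and HFD. Both comparisons use the same HFD libraries, so here and for every gene below, opposite signs in them are not independent. With drug on the normal diet the mean of Gsta3 was 79.3 ± 22.2 TPM (SD, n = 5) against 60.1 ± 11.9 TPM without, with overlapping groups.

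Gsta4, the enzyme known for conjugating 4-hydroxynonenal, was also lowest under HFD. It read 7.34, 7.63, 7.77, 8.83 and 9.06 TPM on the normal diet, 1.45, 1.75, 4.96, 5.82 and 6.39 TPM under HFD, and 7.99, 9.53, 11.1, 12.5 and 14.4 TPM under HFD with drug. Every HFD library lay below every library of both other groups. With drug on the normal diet it read 6.21, 6.88, 10.02, 11.3 and 11.5 TPM, and the lowest of these overlapped the HFD group. Its highest group mean was 11.1 ± 2.50 TPM, under HFD with drug, while that of Gsta3 was with drug on the normal diet. The differences were -0.99 ± 0.29 for HFD and 1.38 ± 0.29 for drug under HFD, on the log2(TPM + 1) scale, which understates the change of a gene at this level.

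HFD libraries 22 and 50 also stood apart in other cells' markers. The summed level of 8 macrophage markers was 11755 and 13487 TPM in them and 2902 to 3682 TPM in the other 3 HFD libraries, and 8 fat cell markers summed to 33947 to 34681 TPM against 51091 to 57199 TPM. Without both libraries, an alternative chosen after their values were seen, the differences for HFD shrank to -0.49 for Gsta3 and -0.44 for Gsta4. Those for drug under HFD shrank to 0.59 and 0.83. In the fits that include both libraries, macrophage markers as a list were also higher under HFD than on the normal diet. Of 7 tested, 5 were past the threshold, against 10.3% of all genes. With drug under HFD 7 of 7 were lower, where 27.4% of all genes were past the threshold and 1787 of 2129 were lower. The part of macrophage content in the Gsta3 and Gsta4 values was not tested. In fat labelled visceral, where macrophage markers summed to 1145 to 3772 TPM, Gsta3 differed by -0.57 ± 0.23 for HFD and by -0.22 ± 0.23 for drug under HFD, and Gsta4 by 0.25 ± 0.18 and 0.03 ± 0.18.

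**Figure D2:**
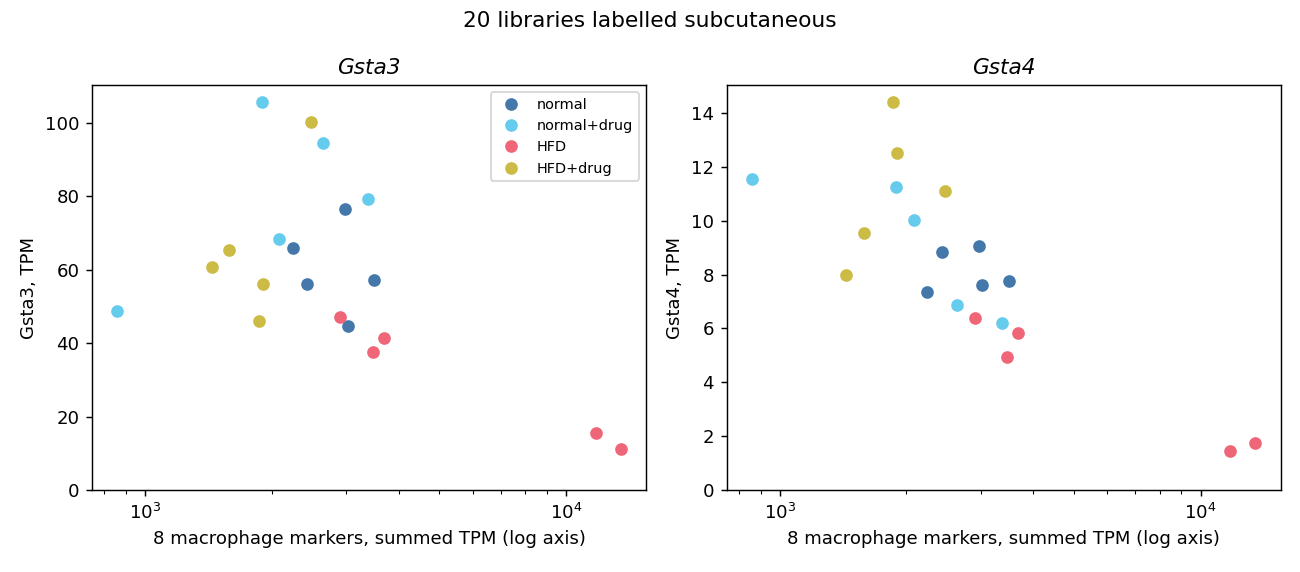
Gsta3 and Gsta4 in TPM against the summed TPM of 8 macrophage markers (log axis) in the 20 libraries labelled subcutaneous, coloured by treatment. HFD libraries 22 and 50 sit at the lower right, with Gsta4 at 1.45 and 1.75 TPM.

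Gstm1, the most abundant mu class gene here, separated the depot labels in every library. It ranged from 581 to 1333 TPM over the 20 libraries labelled subcutaneous and from 202 to 534 TPM over the 20 labelled visceral, with no overlap, and it was the only one of the 10 genes without overlap. The share of all genes without overlap between the labels was not counted, so nothing particular to Gstm1 is read from this. Of all genes tested, 41.8% differed between the labels in limma. Its differences between treatments were 0.22 ± 0.21 for HFD and 0.13 ± 0.21 for drug under HFD in fat labelled subcutaneous, and 0.22 ± 0.22 and -0.28 ± 0.22 in fat labelled visceral. About 11.7% of its sequence, counted in stretches of 75 bases, is shared with other transcripts, most with the pseudogene Gstm2-ps1, so reads may be split between them.

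Gstm2 was at 235 to 301 TPM in every library on the normal diet labelled subcutaneous and at 235 to 333 TPM under HFD. In HFD with drug it read 297, 310, 383, 921 and 1007 TPM, and with drug on the normal diet 161, 206, 357, 796 and 854 TPM. The 4 highest of these values belonged to libraries rich in epididymis markers. Without the 5 such libraries the difference for drug under HFD fell from 0.93 ± 0.42 to 0.31, and that for drug on the normal diet went from 0.46 ± 0.42 to -0.60. All 5 had drug, and only libraries 2 and 8 of normal+drug were left. In fat labelled visceral Gstm2 ranged from 68.7 to 257 TPM, and it differed by 0.66 ± 0.23 for HFD and by -0.49 ± 0.23 for drug under HFD. The HFD value was 0.19 without the libraries whose B cell markers sum to over 5000 TPM. The part of B cell content in it was not tested.

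Gstm7 and Gstm5 had the widest ranges of the 10 genes, and most libraries labelled subcutaneous outside the HFD group held far more of both than those labelled visceral. Gstm7 read 10.7, 19.5, 59.8, 98.9 and 113 TPM on the normal diet, 11.3, 28.1, 171, 754 and 796 TPM with drug, 6.04, 7.56, 10.6, 13.5 and 13.99 TPM under HFD, and 15.2, 99.4, 218, 871 and 1267 TPM under HFD with drug. Every HFD library lay below every library of HFD with drug, while HFD and normal diet overlapped. The difference was 4.26 ± 1.19 for drug under HFD and -2.02 ± 1.19 for HFD. In the 20 libraries labelled visceral Gstm7 stayed between 2.72 and 9.62 TPM. Under HFD the depot labels overlapped, at 3.59 to 9.62 TPM in fat labelled visceral.

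Gstm5 followed Gstm7 in part. It read 77.2, 150, 279, 281 and 398 TPM on the normal diet, 54.1, 60.7, 203, 205 and 211 TPM with drug, 36.8, 47.9, 49.5, 61.7 and 212 TPM under HFD, and 108, 249, 278, 427 and 910 TPM under HFD with drug. HFD library 82, at 212 TPM, stood far above the other 4 of its group, and without it the HFD group still overlapped that with drug on the normal diet. Gstm5 ranged from 20.9 to 53.9 TPM in fat labelled visceral. Under HFD its median was 49.5 TPM in fat labelled subcutaneous and 47.3 TPM in fat labelled visceral, so the labels overlapped there. The difference was -1.64 ± 0.60 for HFD and 2.24 ± 0.60 for drug under HFD. Over all 40 libraries, after the 8 group means were subtracted, Gstm5 and Gstm7 had a Pearson r of 0.60, and of 0.62 over the 35 libraries without those rich in epididymis markers. These points share the composition of each library, and the value is a description.

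Both genes were set against Adam7 and Crisp1, which the epididymis makes in large amounts. In the 5 epididymis-rich libraries Adam7 had a median of 449 TPM and Crisp1 of 3441 TPM, against 0.293 and 1.58 TPM in the other 15 labelled subcutaneous. Both genes are among the 18 markers that define this grouping, so their contrast follows from it. Crisp1 still reached 346 TPM among the other 15. The median of Gstm7 was 796 TPM in the 5 rich libraries and 15.2 TPM in the other 15, a 52.3-fold ratio, and 4 of the 5 lay above all 15. The ratio of medians was 3.05 for Gstm2, 1.96 for Gstm5, 1.69 for Gstp1 and 1.63 for Gstm1. It was 0.62 for Gstt1, 0.68 for Gstz1 and 0.62 for Mgst1, whose medians were lower in the epididymis-rich libraries, and 1.08 for Gsta3 and 1.53 for Gsta4. These libraries were grouped by measured markers and are not a group of the study.

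Epididymis markers did not cover all high values of Gstm5 and Gstm7. HFD+drug library 25 held 910 TPM of Gstm5 and 218 TPM of Gstm7 with Adam7 and Crisp1 together at 18.4 TPM. HFD+drug 52 held 278 and 99.4 TPM with 3.57 TPM of that pair, and normal libraries 91 and 92 held 281 and 279 TPM of Gstm5, and 98.9 and 113 TPM of Gstm7, with 0.864 and 0.578 TPM of the pair. Crisp1 can also be high with little Gstm7, since normal library 98 held 334 TPM of the pair and 10.7 TPM of Gstm7. Normal library 99 held 346 TPM of the pair and 59.8 TPM of Gstm7. Without the 5 epididymis-rich libraries the difference for drug under HFD was 2.71 for Gstm7 and 2.20 for Gstm5. For drug on the normal diet Gstm7 went from 1.56 ± 1.19 to -1.22, and Gstm5 from -0.72 ± 0.60 to -1.82. Only libraries 2 and 8 of normal+drug were left there, and the part of epididymis content was not tested.

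Genes of motile cilia were summed after these values were seen, as 8 genes that include the ciliary transcription factor Foxj1. They summed to 237 TPM in HFD+drug 25, 86.6 TPM in HFD+drug 52, 107 and 111 TPM in normal libraries 91 and 92, 121 TPM in normal library 96 and 59.9 TPM in HFD library 82. Foxj1 alone was at 155 TPM in HFD+drug 25, 58.5 TPM in HFD+drug 52, and 78.0 and 77.0 TPM in normal libraries 91 and 92. In HFD library 82 Foxj1 was at 2.53 TPM, within the 0.290 to 3.84 TPM of the other HFD libraries labelled subcutaneous. In normal library 96 Gstm5 was at 398 TPM, Gstm7 at 19.5 TPM and Foxj1 at 20.2 TPM. In the 4 HFD libraries with Gstm5 below 62 TPM the sum was 6.81 to 10.1 TPM, and over the 20 libraries labelled visceral it was 2.63 to 4.91 TPM. HFD+drug 27 went the other way, with a sum of 8.30 TPM, 249 TPM of Gstm5 and 15623 TPM of epididymis markers. The part of cells that carry either marker set in the Gstm5 and Gstm7 values was not tested.

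**Figure D3:**
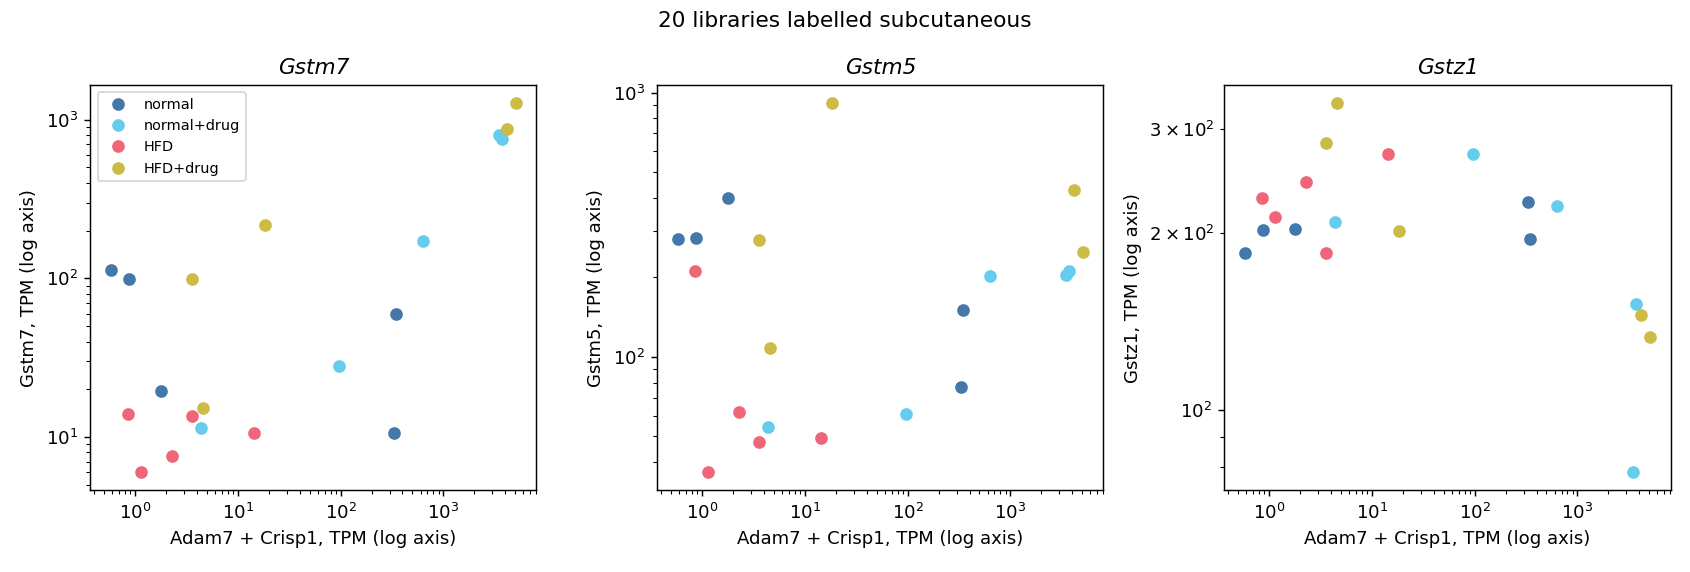
Gstm7, Gstm5 and Gstz1 in TPM against the sum of Adam7 and Crisp1 (all axes log) in the 20 libraries labelled subcutaneous. Gstm7 is at 754 TPM or above in the 4 libraries at the right and Gstz1 is at 151 TPM or below in them, while Gstm5 is highest, at 910 TPM, in a library with 18.4 TPM of the pair.

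Gstt1, a theta class enzyme that acts on small halogenated molecules, was highest under HFD in fat labelled visceral. It read 21.5, 26.2, 26.8, 30.1 and 44.4 TPM on the normal diet, 38.9, 50.03, 58.4, 61.6 and 73.2 TPM under HFD, and 35.1, 36.5, 36.8, 46.9 and 49.7 TPM under HFD with drug. Normal library 98 and HFD+drug libraries 25 and 54 reached into the HFD range, all above HFD library 22. The difference was 0.91 ± 0.22 for HFD and -0.44 ± 0.22 for drug under HFD. Without the 9 libraries with over 5000 TPM of B cell markers, the HFD value was 0.58. In fat labelled subcutaneous the same differences were -0.34 ± 0.29 and 0.41 ± 0.29, and HFD libraries 22 and 50 read 20.7 TPM or less against 31.5 to 41.3 TPM in the other 3.

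Gstp1, the pi class enzyme, was highest under HFD with drug in fat labelled subcutaneous. It read 251, 259, 263, 309 and 366 TPM under HFD and 346, 384, 414, 572 and 672 TPM under HFD with drug, and only HFD library 83 overlapped. The difference was 0.69 ± 0.18, and 0.41 without the epididymis-rich libraries, which held the 572 and 672 TPM. In fat labelled visceral it read 292, 298, 331, 382 and 389 TPM under HFD and 251, 263, 286, 287 and 301 TPM with drug, a difference of -0.28 ± 0.10. About 29.2% of the Gstp1 sequence is shared with Gstp2 in stretches of 75 bases, so the counts of the pair are uncertain. Gstp2 itself was read at a mean of 8.15 ± 3.53 TPM over the 20 libraries labelled visceral.

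Gstz1, which isomerises maleylacetoacetate in the breakdown of tyrosine, and Mgst1, the membrane enzyme, varied least between groups. Group means of Gstz1 ran from 184 to 233 TPM and those of Mgst1 from 425 to 570 TPM. In the 5 libraries rich in epididymis markers Gstz1 read 78.6, 133, 145, 151 and 222 TPM, and 4 of the 5 lay below all other libraries labelled subcutaneous. Mgst1 read 254, 331, 338, 400 and 568 TPM in them, and 1 of the 5 lay below all others. Normal+drug library 9 held the lowest value of all 40 for either gene, while normal+drug library 5 lay above the medians of the other 15 for both. Mgst1 was also low, at 316 and 325 TPM, in HFD libraries 50 and 22 labelled subcutaneous, against 473 to 512 TPM in the other 3. Their differences between treatments ran from -0.36 ± 0.20 to 0.17 ± 0.28 for Gstz1 and from -0.45 ± 0.28 to 0.25 ± 0.28 for Mgst1. Over 40 libraries and within groups the pair had a Pearson r of 0.87, and of 0.74 without the epididymis-rich libraries, as a description.

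**Figure D4:**
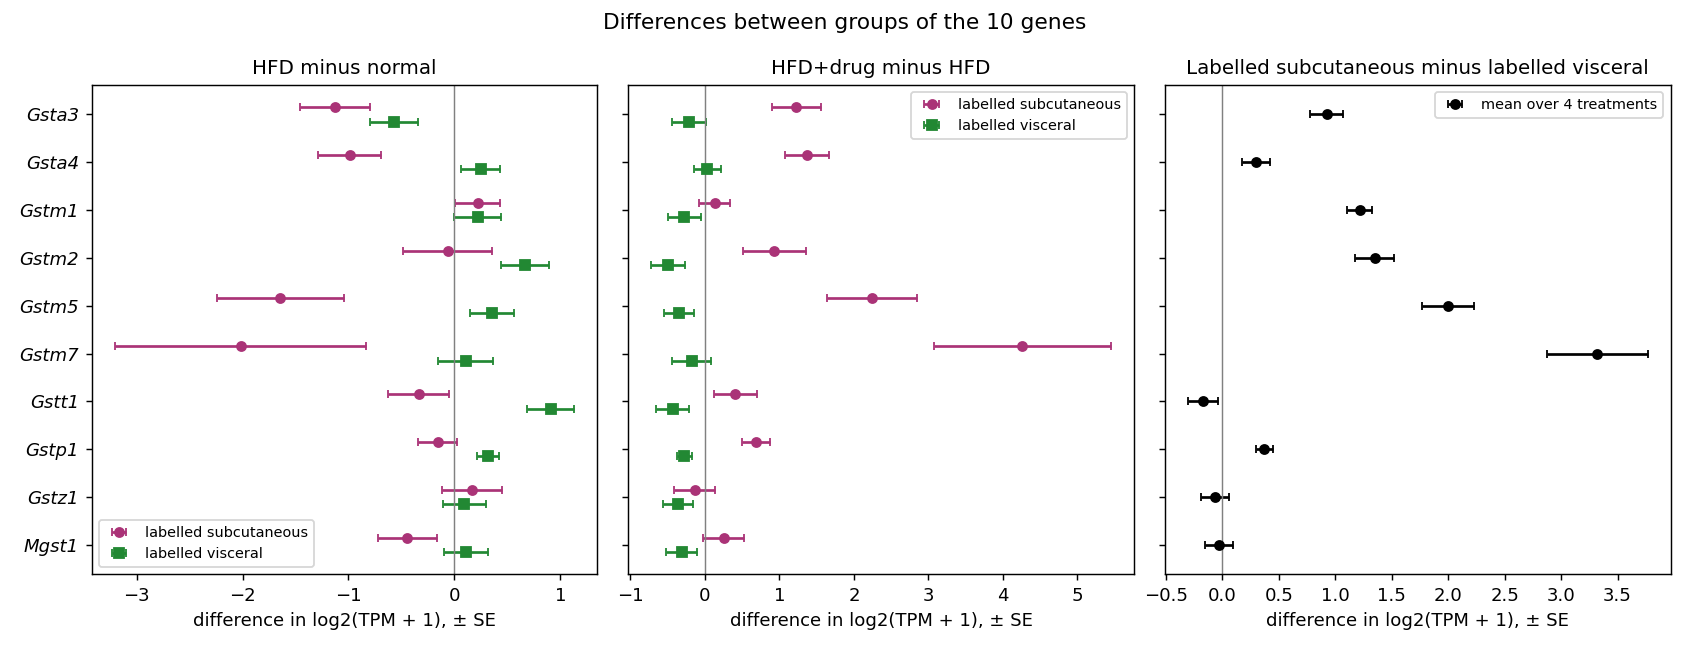
Differences in log2(TPM + 1) with SE for the 10 genes, for HFD against normal diet, for HFD with drug against HFD, and between depot labels. Drug under HFD gives positive values for 9 of 10 genes in fat labelled subcutaneous and negative values for 9 of 10 in fat labelled visceral.

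Counts over the 10 genes are given beside those of all genes tested by limma with Benjamini-Hochberg adjustment at 0.05. Tested genes had 10 TPM or more in at least 5 libraries of the fit, which all 10 did in the fit labelled subcutaneous and over both labels, and 8 did in the fit labelled visceral, where Gsta4 and Gstm7 were too low. Since the genes were listed from these values, nothing is read from the counts. Under HFD, in fat labelled subcutaneous, Gsta3 and Gsta4 were past the threshold and lower, 2 of 10, where 10.3% of all genes were past it. The Gsta3 call was lost in 11 of 21 other settings and that of Gsta4 in 11 of 19, among them the removal of any of 6 or 7 single libraries and of HFD libraries 22 and 50, and the count ran from 0 to 3 when 1 library was left out. With drug under HFD 5 of 10 were higher, Gsta3, Gsta4, Gstm5, Gstm7 and Gstp1, where 27.4% of genes were past it and 1787 of 2129 were lower. All 5 calls were lost without HFD libraries 22 and 50, and in 0 of the other settings that tested them. That setting keeps 3 HFD libraries, and far fewer of all genes pass in it, as counted in a later section. Gstm7 read 6.04 and 13.5 TPM in libraries 22 and 50, and 7.56 to 13.99 TPM in the other HFD libraries labelled subcutaneous. The median difference of the 10 was -0.39 for HFD and 0.81 for drug under HFD, against 0.01 and -0.19 over all genes.

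In fat labelled visceral, Gstt1 was past the threshold for HFD, 1 of 8, against 8.93% of genes, and the call was lost in 5 of 20 other settings. These were the B cell covariate, the removal of libraries over 1000 or 5000 TPM of B cell markers, after which 0 genes passed in limma, and the removal of HFD library 50 or normal library 94. The count of the 8 past the threshold ran from 0 to 3 when 1 library was left out. It was 0 of 8 for drug under HFD, against 5.18%. The medians of the 8 were 0.27 and -0.33, against -0.05 and -0.07 over all genes. For drug on the normal diet, 0% of genes passed in limma under either label. The unadjusted limma p was under 0.05 for 504 of 7776 genes labelled subcutaneous and 284 of 7760 labelled visceral. Chance alone gives a share of about 0.05. Among the 10 genes the largest value there was that of Gstm7 labelled subcutaneous, given above. Relative to its SE the value of Gstt1 was the largest, at -0.68 ± 0.29 labelled subcutaneous and -0.47 ± 0.22 labelled visceral.

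Between the depot labels, over the mean of 4 treatments, 6 of 10 genes were past the threshold and higher in fat labelled subcutaneous, where 41.8% of genes were past it. The differences were 3.32 ± 0.44 for Gstm7, 2.0 ± 0.23 for Gstm5, 1.35 ± 0.17 for Gstm2, 1.22 ± 0.11 for Gstm1, 0.92 ± 0.15 for Gsta3 and 0.37 ± 0.07 for Gstp1. Gsta4 gave 0.30 ± 0.12, Gstt1 -0.17 ± 0.13, Gstz1 -0.06 ± 0.12 and Mgst1 -0.03 ± 0.12. Of the 20 libraries labelled subcutaneous, 18 lay above all labelled visceral for Gstm7 and 17 for Gstm5. Without the epididymis-rich libraries the differences were 2.24 for Gstm7, 1.72 for Gstm5, 0.93 for Gstm2 and 1.05 for Gstm1. Adding the log2 sum of epididymis markers to the fit gave 1.79 for Gstm7 and 0.65 for Gstm2. That sum itself differed between the labels, with a median of 61.1 TPM in fat labelled subcutaneous and 2.17 TPM in fat labelled visceral. Here and in later comparisons of the labels, this covariate thus cannot separate epididymis content from the depot label.

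The effects of diet and drug were also compared between the depot labels. For HFD, the difference of the differences, labelled subcutaneous minus labelled visceral, was negative for 9 of 10 genes, from -2.12 ± 1.26 for Gstm7 and -2.0 ± 0.65 for Gstm5 to -0.00 ± 0.31 for Gstm1. No gene of the 8799 tested passed in limma, 0%, with 756 at an unadjusted p under 0.05. For drug under HFD it was positive for 10 of 10 genes, with 4.44 ± 1.26 for Gstm7, 2.59 ± 0.65 for Gstm5, 1.44 ± 0.41 for Gsta3, 1.34 ± 0.35 for Gsta4 and 0.97 ± 0.21 for Gstp1. Gstp1 alone was past the threshold, 1 of 10, against 0.182% of all genes. The call was lost in 19 of 31 other settings, among them the replicate block, a filter of 1 TPM, the removal of HFD libraries 22 and 50, and the removal of any of 12 single libraries, and the count ran from 0 to 4 when 1 library was left out. Its value was 0.68 without the epididymis-rich libraries. This comparison shares its HFD libraries with the one for HFD, so the opposite signs are not independent.

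The other genes of the family with a group mean of at least 10 TPM were Gstk1, Gstm4, Gstm6, Gsto1, Gstp3, Gstt2, Gstt3 and Mgst3, and of the prostaglandin and leukotriene enzymes of the list Hpgds, Ptges and Ltc4s. Over the 20 libraries labelled subcutaneous and the 20 labelled visceral, Gstk1 averaged 62.6 ± 13.2 and 73.0 ± 20.2 TPM, Mgst3 50.6 ± 17.5 and 48.6 ± 16.4 TPM, and Gstt3 18.8 ± 14.8 and 12.7 ± 3.73 TPM (SD). Hpgds, which makes prostaglandin D and was not tested, averaged 17.6 ± 18.6 TPM under HFD in fat labelled subcutaneous and 4.82 TPM or less in the other groups. Of 9 other family genes tested in fat labelled subcutaneous, 1 changed under HFD, where 10.3% of all genes did. Gstt2 fell from 127 ± 13.8 to 66.9 ± 24.5 TPM (SD, n = 5), a change of -0.98 ± 0.23 (limma adjusted p = 0.0126), with no overlap. That call was lost without HFD libraries 22 and 50 (adjusted p = 0.149). With drug under HFD, 1 of 9 rose and 1 fell, a share below the 27.4% of all genes. Gstm6 rose from 13.2 ± 3.76 to 147 ± 140 TPM (change 2.63 ± 0.94, limma adjusted p = 0.0459), and the omega class gene Gsto1 fell from 80.9 ± 10.8 to 51.1 ± 15.5 TPM (-0.70 ± 0.24, limma adjusted p = 0.0385). The median of Gstm6 was 15.5-fold higher in the epididymis-rich libraries, and without them its change was 1.47 (limma adjusted p = 0.0642). Of 21 other settings the Gstm6 call was lost in 13 and the Gsto1 call in 12, among them the removal of any of several single libraries.

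In fat labelled visceral, 1 of 10 other family genes rose under HFD, where 8.93% of all genes changed. It was Gstm4, from 21.6 ± 4.84 to 42.4 ± 14.5 TPM (change 0.90 ± 0.21, limma adjusted p = 0.0133), and the call was lost without HFD library 50 or without the libraries rich in B cell markers. With drug under HFD 0 of 10 changed, against 5.18% of all genes. Between the depot labels 5 of 11 differed, near the 41.8% of all genes, and 2 of 11 were higher in fat labelled subcutaneous, Gstm6 (2.47 ± 0.36, limma adjusted p = 1.74e-06) and Gstm4 (0.95 ± 0.15, limma adjusted p = 9.77e-06), and 3 were lower, Gstp3 (-1.26 ± 0.34, limma adjusted p = 0.00376), Gstp2 (-0.50 ± 0.16, limma adjusted p = 0.0107) and Gstk1 (-0.19 ± 0.08, limma adjusted p = 0.0461). With the epididymis covariate Gstm6 alone of these 5 stayed past the threshold.

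Enzymes that supply glutathione and keep it reduced were read from lists of the pathway. Under HFD in fat labelled subcutaneous, 5 of 10 genes of reduction and NADPH supply rose and 1 fell, against 10.3% of all genes, and 2 to 4 rose when 1 library was left out. G6pdx, the first enzyme of the pentose phosphate pathway, rose from 67.7 ± 10.7 to 137 ± 28.0 TPM (0.99 ± 0.16, limma adjusted p = 0.00135). Pgd, the next NADPH-forming enzyme of that pathway, rose by 0.73 ± 0.16 (limma adjusted p = 0.00901), as did malic enzyme Me1 and the isocitrate dehydrogenases Idh1 and Idh2. Glutathione reductase, Gsr, fell by 0.42 ± 0.09 (limma adjusted p = 0.00782). With drug under HFD 3 of 10 fell and 1 rose, against 27.4% of all genes. G6pdx, Pgd and Me1 fell, G6pdx by 0.74 ± 0.16 (limma adjusted p = 0.00502), and Gsr rose by 0.32 ± 0.09 (limma adjusted p = 0.0162). Without HFD libraries 22 and 50, of these calls only the rise of G6pdx under HFD stayed past the threshold.

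Of 6 tested peroxidases 1 changed in fat labelled subcutaneous, against 10.3% of all genes under HFD and 27.4% with drug under HFD. This was Gpx3, the secreted glutathione peroxidase. It fell under HFD from 1931 ± 275 to 622 ± 243 TPM (-1.72 ± 0.39, limma adjusted p = 0.0115) and rose with drug (1.95 ± 0.39, limma adjusted p = 0.00382), with no overlap in either comparison. Both calls were lost without HFD libraries 22 and 50 (limma adjusted p = 0.143 and 0.059). Of 11 genes of glutathione synthesis and breakdown, 1 changed under HFD, near the 10.3% of all genes. Chac1, which breaks glutathione down, fell (-1.51 ± 0.44, limma adjusted p = 0.0365), a call lost in 11 of 21 other settings. With drug under HFD 1 of the 11 fell and 1 rose, a share below the 27.4% of all genes. The peptidase Anpep fell (-2.12 ± 0.44, limma adjusted p = 0.00417) and Ggt1, which cleaves glutathione outside the cell, rose from 0.327 ± 0.220 to 12.6 ± 8.25 TPM (2.95 ± 1.01, limma adjusted p = 0.0378). The Ggt1 call was lost in 14 of 19 other settings and that of Anpep in 0 of 21.

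Of 17 genes of the NRF2 pathway in fat labelled subcutaneous, 3 rose under HFD and 0 fell, where 10.3% of all genes changed. With drug 0 rose and 4 fell, a share below the 27.4% of all genes, most of which also fell. Differences were positive for 11 of the 17 under HFD and for 4 with drug. Nqo1 went the other way from the called genes, by -0.51 ± 0.56 under HFD and 1.39 ± 0.56 with drug. It missed the threshold in both (limma adjusted p = 0.6205 and 0.0741), though every HFD library lay below every normal one. Ephx1, an epoxide hydrolase, rose under HFD (0.95 ± 0.21, limma adjusted p = 0.00958) and fell with drug (-0.70 ± 0.21, limma adjusted p = 0.0216). The transcription factor Nfe2l1 rose by 0.50 ± 0.14 (limma adjusted p = 0.0309) and fell by 0.76 ± 0.14 (limma adjusted p = 0.00298), and haem oxygenase Hmox1 fell with drug (-1.40 ± 0.40, limma adjusted p = 0.0176). Of these the fall of Nfe2l1 alone stayed past the threshold without HFD libraries 22 and 50. Of 16 genes for reactive aldehydes and dicarbonyls, 2 rose and 1 fell under HFD, against 10.3% of all genes, and 2 rose and 4 fell with drug, against 27.4%. Akr1b3, an aldose reductase, rose by 0.83 ± 0.16 (limma adjusted p = 0.00379) and fell by 0.69 ± 0.16 (limma adjusted p = 0.00615), and both calls were lost without HFD libraries 22 and 50. The rises under HFD and falls with drug share their HFD libraries and are not independent.

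In fat labelled visceral, HFD raised Idh2 (1.01 ± 0.13, limma adjusted p = 0.000549), Idh1 (0.85 ± 0.18, limma adjusted p = 0.00654) and G6pdx among 10 genes of reduction and NADPH supply, with 0 lower, where 8.93% of all genes changed. Cbs, which makes cystathionine, a precursor of cysteine, fell from 12.9 ± 4.71 to 2.64 ± 0.954 TPM (-1.92 ± 0.33, limma adjusted p = 0.00255). Among 15 NRF2 pathway genes 1 rose under HFD and 0 fell, Mafk, a small Maf partner of NRF2 (0.71 ± 0.18, limma adjusted p = 0.0231). Without the libraries with over 5000 TPM of B cell markers none of these calls stood: Idh1, Idh2, G6pdx and Mafk missed the threshold, and Cbs was below the filter and not tested. That fit kept every HFD library and lost most of the normal diet, so it compares far fewer libraries. With drug under HFD 0 of 10 genes of reduction and NADPH supply changed, and 2 of 15 NRF2 pathway genes fell, where 5.18% of all genes changed. These were Mafk, measured from the same HFD libraries in which it was higher than on the normal diet, and Maff, another small Maf protein (-0.94 ± 0.18 and -1.20 ± 0.31, limma adjusted p = 0.0173 and 0.0399), calls that were lost without the B cell-rich libraries too. Between the depot labels, Glo1, which with Hagh removes methylglyoxal, was higher in fat labelled subcutaneous (0.81 ± 0.08, limma adjusted p = 1.26e-09). Gclm, a subunit of the enzyme that starts glutathione synthesis, was also higher (0.69 ± 0.12, limma adjusted p = 2.44e-05), and was past the threshold in all alternatives but the epididymis covariate. Peroxiredoxin Prdx1 was higher by 0.49 ± 0.07 (limma adjusted p = 2.92e-06).

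The genes most like each of the 10 were found by Pearson r of log2(TPM + 1) over 40 libraries after subtracting the 8 group means, among 8798 others. Gstm7 was most like Prom1 (r = 0.98), Gstm6 (0.96) and Mfrp (0.95), and without the epididymis-rich libraries Prom1 was still first (0.93). Gstm5 was most like Cetn4 (0.88) with or without (0.89) them, followed by Ccdc189 (0.87) and Pierce2 (0.85). Gstz1 was most like Pon3 (0.94), Eif4ebp1 (0.94) and Fabp4 (0.92), and Mgst1 most like Eif4ebp1 (0.94), Hibadh (0.92) and Cyb5a (0.92). Gstm2 was closest to Maged1 (0.90), Gstt1 to Nenf (0.83), Gstp1 to Pnmt (0.78), Gstm1 to Cpd (0.78), Gsta3 to Hoxc9 (0.69) and Gsta4 to Mettl7a1 (0.68). Without the epididymis-rich libraries, 35 in all, the gene first in likeness to Gstt1 was Gsta4 (0.78), that to Mgst1 was Scp2 (0.94) and that to Gsta4 was Gm44386 (0.87). These values share the composition of each library and are a description.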

How the data were processed

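Total RNA of mouse fat was sequenced, per the labels. The deposited values are TPM, scaled by the authors to one total in all libraries. Named in the submitters' processing notes are build GRCm39, STAR 2.7.8, featureCounts 2.0.3, FastQC 0.11.9 and DESeq2 1.32.0, while the annotation is not given in the sources used here. No label states that libraries come from separate animals, and p-values then measure only the spread between libraries, which may be technical.

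Values were analysed as log2(TPM + 1) with limma 3.58.1 (trended, robust) in R 4.3.3, for genes at 10 TPM or more in at least 5 libraries of the fit, with Benjamini-Hochberg adjustment over all genes tested and a threshold of 0.05. One fit held the 20 libraries of a depot label, and another all 40 for comparisons across labels. A gene below the filter has its value from an unfiltered fit. Read numbers are approximate, since exon lengths came from build GRCm38 for 49067 genes.

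The 10 genes and the gene lists were chosen with earlier results of these data known. The named genes are all 10, up to 5 genes a list past the threshold by adjusted p, other family genes with a group mean of at least 10 TPM, and the 3 tested genes most like each. Not every gene this rule allows is printed, and the choice among them was made with their values in view. Alternatives were other pseudocounts, filters, quantile normalization, the 2 compared groups alone, covariates, and leaving out libraries (each library of the groups compared, in turn). The fits were tested on simulated data, with 200 genes changed. Figures were drawn with matplotlib.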

Additional observations from a re-analysis of the deposited data

Results flagged for a closer look

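Adh5, an alcohol dehydrogenase that acts on the glutathione adduct of formaldehyde, differed between the depot labels in its response to drug under HFD, by 0.92 on the log2(TPM + 1) scale (limma interaction term, adjusted p = 0.0492). Its mean was 82.5 ± 9.40 TPM under HFD and 129 ± 29.2 TPM with drug in fat labelled subcutaneous, and 75.4 ± 10.4 and 60.4 ± 1.95 TPM in fat labelled visceral (SD, n = 5 each). Over 31 alternatives the value ran from 0.70 to 1.06 and the adjusted p from 0.00786 to 0.329, and the call was lost in 18 of them. Gstm5 was at 212 TPM in HFD library 82 labelled subcutaneous, far above the 36.8 to 61.7 TPM of the other 4. The gap to the nearest was 0.857 of the range of the group in TPM, past Dixon's criterion (0.71), and 0.706 on the log2(TPM + 1) scale, short of it. Among 80 sets of 5 values, each gene of the 10 in each group, this was 1 set past the criterion in TPM and 0 were past it on the log2 scale, where chance alone would mark about 1 set in 20.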

How the results depend on the processing

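Of 2243 values of the 10 genes over the alternatives, 31 moved by more than 1 SD and 0 reversed after passing the threshold. Of 500 values of the 10 genes past the threshold, 52 lost it. Of 2922 values of other genes past the threshold, 383 lost it and 1 reversed, Nqo1 between depot labels, from 0.61 to -0.26 with the epididymis covariate. The cause was not tested for any of the counts that follow. Genes past the threshold for drug under HFD between depot labels numbered 16, and 72 with a B cell covariate, 0 with the epididymis covariate, 0 with a filter of 1 TPM, 0 with no filter, 29 and 5 with pseudocounts of 0.5 and 5, 127 with quantile normalization, 0 with the replicate block, 449 without epididymis-rich libraries, 0 without HFD libraries 22 and 50, and 0 without libraries over 5000 TPM of B cell markers. For HFD between labels the count was 0, and 1 with the epididymis covariate, 1 with the 1 TPM filter, 1 with no filter and 1 with the replicate block. For HFD labelled subcutaneous it was 799, and 1356 with the 2 groups alone, 1422 without epididymis-rich libraries, 105 without HFD 22 and 50 and 476 without B cell-rich libraries. For HFD labelled visceral it was 693, and 379 with the 2 groups alone, 435 with the epididymis covariate and 0 without libraries over 1000 or 5000 TPM of B cell markers. For drug under HFD labelled subcutaneous it was 2129, and 3388 with the 1 TPM filter and 148 without HFD 22 and 50. For drug under HFD labelled visceral it was 402, and 51 with the 2 groups alone, 229 with the B cell covariate, 2 with the epididymis covariate, 87 with no filter, 1 with quantile normalization, and 5 and 1 without libraries over 1000 and 5000 TPM of B cell markers. Between depot labels it was 3676, and 2005 with the epididymis covariate, 7315 with the 1 TPM filter and 8280 with no filter. For drug on the normal diet labelled subcutaneous it was 0, and 1 without epididymis-rich libraries. Leaving out each library of the groups compared gave 0 to 221 for drug by label, 0 to 2 for HFD by label, 302 to 876 and 245 to 1017 for HFD, 1210 to 2053 and 0 to 853 for drug under HFD (labelled subcutaneous, then visceral), 3415 to 3724 between labels and 0 for drug on the normal diet. Whether title numbers shared between depot labels mark the same animal is not stated. Over 16 such pairs the correlation of deviations ran from -0.099 to 0.14, median 0.042, 3 above 0.1. Over the 84 other pairs within a treatment it ran from -0.205 to 0.252, median 0.003. Of 32 libraries, 10 correlated best with their own number. Weak correlation between depots cannot decide whether the libraries are paired, and the replicate block was kept as an alternative. Leaving out libraries over 1000 TPM of B cell markers was not run for fat labelled subcutaneous or across labels, where a group had no library left. Depth limits Gsta4 most.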

Other observations

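Gstp3, a pi class gene outside the 10, differed widely between libraries labelled visceral. It ranged from 11.7 to 39.4 TPM, median 17.3 TPM, in the 9 libraries whose B cell markers summed to over 5000 TPM, and from 0.775 to 8.47 TPM, median 1.76 TPM, in the other 11. These libraries were grouped by measured markers, after the values were seen, and the comparison was not tested.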
